A study of Mus musculus with 12 samples.

Results

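Sox9, Sox4, Elf3, Ehf, Klf5, Onecut1 and Onecut2, 7 transcription factors of the biliary lineage, were chosen by name out of the 21807 gene IDs in the deposited counts of mouse liver RNA. All 7 were found by symbol, and all 7 passed the filter on low counts in every comparison. They were followed in 12 bulk RNA libraries in 4 groups of 3: NICD1/Akt livers at 3 weeks (libraries 1, 2 and 3) and at 2 weeks (33, 34 and 35) after hydrodynamic tail vein injection (HTVi), and controls, labelled WT, of 3 weeks (10, 11 and 12) and of 2 weeks (30, 31 and 32). All mice are C57BL/6J, and the methods name males injected at 5 weeks of age. The NICD1/Akt mice received 10 µg of a plasmid for NICD1, the intracellular part of Notch1 that is active without a ligand, and 10 µg of a plasmid for myr-AKT, a form of Akt held at the membrane. Another plasmid carried the Sleeping Beauty transposase, an enzyme that moves the transgenes into chromosomes. The controls are described as not injected, although their labels give the same times, which are read here as the stage they belong to. HTVi carries DNA mainly into hepatocytes and reaches only part of them, so each NICD1/Akt sample mixes cells with and without the transgenes. By label, the NICD1/Akt tissue is liver (CCA tumor), and the control tissue is liver. No label says that the 3 libraries of a group are separate mice, so p-values measure only the spread between these libraries.

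In the embryonic liver, hepatocytes and bile duct cells (cholangiocytes) arise from a common progenitor, the hepatoblast, and Notch signalling favours the biliary side. The released intracellular domain of Notch enters the nucleus and activates genes through the DNA-binding protein RBPJ. SOX9 is an early marker of the ductal plate from which bile ducts form and is a known Notch target, and SOX4 acts with it in bile duct formation. ELF3 and EHF are ETS factors of the epithelium-specific ESE group, and KLF5 is a zinc-finger factor of gut and other epithelia. ONECUT1 (also called HNF6) and ONECUT2 are cut-homeodomain factors of hepatoblasts that steer the choice between the hepatocyte and biliary fates, and ONECUT1 is also a factor of adult hepatocytes.

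RefSeq promoters in build GRCm38.p6 were examined for 3 of the 7 genes. These were Sox4 and Elf3, which were higher in NICD1/Akt livers at 3 weeks, and Onecut1, which was lower. Onecut2 was left out of this search, and no promoter entry was found for Sox9, Ehf or Klf5. The 250 bases before each annotated start are shown because the model is driven by a partner of RBPJ, whose core motif TGGGAA is in capitals where it occurs on either strand.
Sox4 (chr13:28953700-28953949, minus strand): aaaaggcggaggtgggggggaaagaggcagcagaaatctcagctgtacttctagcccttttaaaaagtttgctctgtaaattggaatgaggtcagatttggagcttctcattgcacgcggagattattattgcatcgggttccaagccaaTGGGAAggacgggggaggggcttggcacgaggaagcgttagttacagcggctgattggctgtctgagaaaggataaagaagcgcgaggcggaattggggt
Elf3 (chr1:135258473-135258722, minus strand): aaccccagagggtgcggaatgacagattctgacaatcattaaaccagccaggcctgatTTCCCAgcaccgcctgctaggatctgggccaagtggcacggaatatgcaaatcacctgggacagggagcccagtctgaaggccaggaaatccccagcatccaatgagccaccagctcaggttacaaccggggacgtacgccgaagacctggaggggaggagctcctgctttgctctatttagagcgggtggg
Onecut1 (chr9:74861671-74861920, plus strand): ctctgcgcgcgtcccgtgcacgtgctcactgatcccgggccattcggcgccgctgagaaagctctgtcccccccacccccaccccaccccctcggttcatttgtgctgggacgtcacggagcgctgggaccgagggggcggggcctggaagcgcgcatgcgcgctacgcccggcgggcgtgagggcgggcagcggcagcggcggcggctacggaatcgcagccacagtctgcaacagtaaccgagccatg
The motif begins 100 bases before the start of Sox4 and, on the opposite strand (read here as TTCCCA), 192 bases before that of Elf3, and it is not in this window of Onecut1. Of 32851 promoter windows of the same length, 21.6% hold it on either strand. Core motifs of the factors' own families were also searched on both strands. CACCC, a KLF core, occurs in the windows of Elf3 and Onecut1 and in 17087 of all windows, and AGGAAG, an ETS core, occurs in that of Sox4 and in 29.5% of all windows. The SOX core ACAAAG (16.5% of all windows) and the ONECUT core ATCAAT (6.72%) occur in none of the 3.

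Total counts were 13136892 to 19594839 per library. Levels are given as counts per 1000000 counts (CPM) after TMM scaling over all 12 libraries, and fold changes come from edgeR's quasi-likelihood test, with p-values adjusted over all genes tested. The library labelled control 32 of 2 weeks stood apart in genes other than the 7 factors. Akt1, which the myr-AKT plasmid can add to, was at 285, 324 and 925 CPM in libraries 33, 34 and 35, the NICD1/Akt livers of 2 weeks, against 381 CPM in library 32 and 90.6 and 89.9 CPM in controls 30 and 31. Notch1 was at 106 CPM in library 32 and at 48.9 and 53.6 CPM in controls 30 and 31. In libraries 33, 34 and 35 it was at 101, 119 and 202 CPM. The Y-linked gene Ddx3y was at 57.04 CPM in library 32, whereas the 5 remaining libraries of 2 weeks held 0 to 0.399 CPM, against 52.4 to 126 CPM in all 6 libraries of 3 weeks. The near absence of Ddx3y in those 5 goes against the males named in the methods. By this gene, sex was not balanced among the libraries of 2 weeks, and sex and stage cannot be told apart in comparisons of 3 with 2 weeks. Library 32 was kept in its labelled group, and the fold changes of the factors at 2 weeks are given with and without it. Library 35, the NICD1/Akt liver with the most Akt1 at 2 weeks, gave lower values for all 7 when left out.

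At 3 weeks, 5 of the 7 factors rose in NICD1/Akt livers against controls (Sox9, Sox4, Elf3, Ehf and Klf5), 1 fell (Onecut1) and Onecut2 was not called. This comparison called 72.0% of 13408 genes, 38.9% as higher and 33.1% as lower, so a call alone sets none of the factors apart. Of the calls, 54.1% were higher, and 87.6% with scaling by library size alone, which moved the median over all genes to 0.77. Sizes differed widely, from a log2 fold change of 2.20 for Sox9 to 8.31 for Ehf, where the median over all genes tested was 0.06 and that of the 7 factors 3.52. The 3 NICD1/Akt libraries did not overlap the 3 controls for any of the 7 genes. Such a gap occurred upwards for 37.7% and downwards for 40.1% of the genes tested. At 2 weeks no factor was called, and the groups overlapped for all 7.

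**Figure D1:**
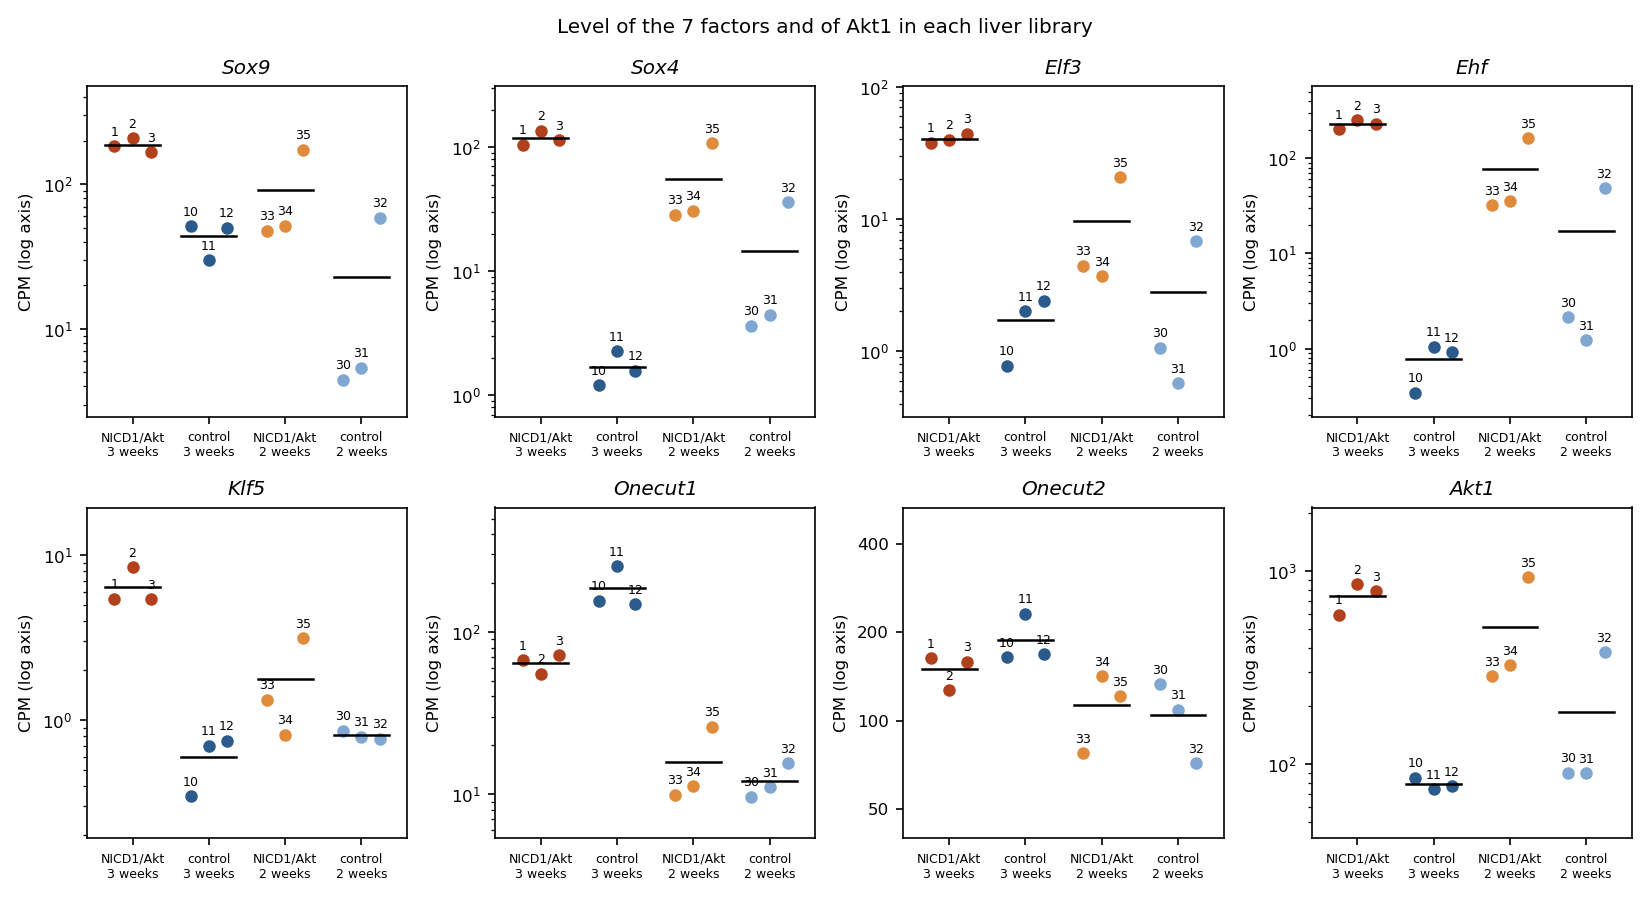
Level of each factor and of Akt1 in CPM (log axis) in the 12 libraries, by group, with the library number at each point and a line at each group mean (n = 3). Library 32 lies with the NICD1/Akt livers of 2 weeks for Sox9, Sox4, Elf3, Ehf and Akt1 but not for Klf5, and Onecut1 is highest in the controls of 3 weeks, at 148 to 254 CPM.

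Sox9 (ENSMUSG00000000567.6) was at 183, 208 and 167 CPM in the NICD1/Akt livers at 3 weeks, against 51.3, 29.9 and 50.2 CPM in controls. It rose by 2.20 on the log2 scale (standard error, SE, 0.21, adjusted p = 3.22e-05), the smallest change among the 5 factors that rose. At 2 weeks, Sox9 was at 47.7, 51.6 and 174 CPM in the NICD1/Akt livers, against 4.44, 5.39 and 58.7 CPM in controls. Libraries 35 and 32 were the highest of their groups, and library 32 lay above 2 of the 3 NICD1/Akt livers. Controls 30 and 31 had the lowest Sox9 of all 12 libraries, and the mean of the controls of 3 weeks was 8.91 times theirs. The log2 fold change at 2 weeks was 2.01 (SE 1.09, adjusted p = 0.520), without library 32 it was 4.24 (SE 0.76, adjusted p = 0.195), and without library 35 it was 1.12 (adjusted p = 0.855). The effects at 3 and 2 weeks differed by 0.08 on the log2 scale (95% interval -2.51 to 2.67, adjusted p = 0.966), an interval wide enough to hold a change of several-fold in either direction. Without library 32, that difference was -2.13 (adjusted p = 0.0570).

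Sox4 (ENSMUSG00000076431.5) was at 105, 136 and 114 CPM in the NICD1/Akt livers at 3 weeks, against 1.21, 2.26 and 1.58 CPM in controls, which held 14, 26 and 19 counts. It rose by 6.24 on the log2 scale (SE 0.20, adjusted p = 2.09e-07), relative to a far lower control level than that of Sox9. Against all 6 controls, which are of both stages and include library 32, it rose by 3.84 (adjusted p = 0.0101). At 2 weeks, Sox4 was at 28.7, 30.7 and 108 CPM in the NICD1/Akt livers, against 3.65, 4.46 and 36.0 CPM in controls. Library 35 matched the NICD1/Akt livers of 3 weeks, and library 32 again lay within the NICD1/Akt range. Its log2 fold change there was 1.94 (SE 1.00, adjusted p = 0.520), with 3.81 without library 32 (SE 0.77, adjusted p = 0.195) and 1.01 without library 35 (adjusted p = 0.853). The effect was larger at 3 than at 2 weeks by 4.19 on the log2 scale (adjusted p = 0.0276), but without library 32 the difference was 2.34 and was not called (adjusted p = 0.0600).

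Ehf (ENSMUSG00000012350.16) showed the largest change of the 7 factors at 3 weeks. It was at 201, 250 and 231 CPM in the NICD1/Akt livers, against 0.345, 1.04 and 0.917 CPM in controls, or 4, 12 and 11 counts. This was a log2 fold change of 8.31 (SE 0.25, adjusted p = 2.09e-07), which ranked 128 from the top among the 13408 genes tested. Against all 6 controls, which are of both stages and include library 32, it was 4.65 (adjusted p = 0.0188). At 2 weeks it was at 32.1, 35.3 and 164 CPM in the NICD1/Akt livers, against 2.12, 1.22 and 48.3 CPM in controls. Library 32 had 28.9 times the mean of controls 30 and 31, the largest such ratio among the 7 factors, while NICD1/Akt libraries 33 and 34 together had 20.2 times it. The log2 fold change at 2 weeks was 2.18 (SE 1.39, adjusted p = 0.526), with 5.54 without library 32 (SE 1.06, adjusted p = 0.195) and 0.97 without library 35 (adjusted p = 0.895). The effect was larger at 3 weeks by 6.02 (adjusted p = 0.0299), and by 2.68 without library 32, where it was not called (adjusted p = 0.116).

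Elf3 (ENSMUSG00000003051.14), the other ESE factor, was lower than Ehf in every NICD1/Akt library, per kilobase of exon as well as in CPM. It was at 37.7, 39.9 and 44.1 CPM in the NICD1/Akt livers at 3 weeks, against 0.776, 2.00 and 2.42 CPM in controls. It rose by 4.65 on the log2 scale (SE 0.25, adjusted p = 1.74e-06). At 2 weeks it was at 4.45, 3.69 and 20.8 CPM in the NICD1/Akt livers, against 1.06, 0.575 and 6.78 CPM in controls. Libraries 33 and 34 were thus far below the livers of 3 weeks, and library 32 lay above both. The log2 fold change was 1.81 (SE 1.07, adjusted p = 0.520), with 3.58 without library 32 (SE 1.01, adjusted p = 0.205) and 0.54 without library 35 (adjusted p = 0.910). The effect at 3 weeks exceeded that at 2 weeks by 2.71 (95% interval 0.05 to 5.37), which did not pass the threshold (adjusted p = 0.104), and by 0.97 without library 32 (adjusted p = 0.554).

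Klf5 (ENSMUSG00000005148.9) had the lowest level of the 7 per kilobase of exon in NICD1/Akt livers of both stages. At 3 weeks it was at 5.42, 8.44 and 5.38 CPM in the NICD1/Akt livers, against 0.345, 0.696 and 0.750 CPM in controls, or 4, 8 and 9 counts. It rose by 3.52 on the log2 scale (SE 0.35, adjusted p = 4.06e-05). At 2 weeks it was at 1.33, 0.813 and 3.14 CPM in the NICD1/Akt livers, against 0.862, 0.791 and 0.771 CPM in controls, and only library 35 stood clear of the rest. Unlike Sox9, Sox4, Elf3 and Ehf, it was not raised in library 32, which had 10 counts beside 13 and 11 in controls 30 and 31. The log2 fold change at 2 weeks was 1.15 (SE 0.56, adjusted p = 0.520), with 1.13 without library 32 (adjusted p = 0.419) and 0.39 without library 35 (adjusted p = 0.875). The effect was larger at 3 weeks by 2.25 (adjusted p = 0.0331); without library 32 the difference kept its size, at 2.28, and was not called (adjusted p = 0.0586).

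Onecut1 (ENSMUSG00000043013.11) went the other way at 3 weeks. It was at 66.7, 55.4 and 71.6 CPM in the NICD1/Akt livers, against 156, 254 and 148 CPM in controls, and fell by 1.41 on the log2 scale (SE 0.21, adjusted p = 0.00041). At 2 weeks its levels were far lower in both groups, at 9.90, 11.2 and 26.0 CPM in the NICD1/Akt livers, against 9.62, 11.002 and 15.5 CPM in controls. The groups of 2 weeks overlapped, with a log2 fold change of 0.40 (SE 0.41, 95% interval -0.59 to 1.39, adjusted p = 0.657), which was 0.63 without library 32 (adjusted p = 0.488) and -0.20 without library 35 (adjusted p = 0.876). The lower value at 3 weeks is therefore relative to controls that held 15.4 times as much Onecut1 RNA as those of 2 weeks, and every NICD1/Akt liver of 3 weeks was above every library of 2 weeks. Against all 6 controls, the log2 fold change at 3 weeks was -0.62 and was not called (adjusted p = 0.642). The effects at 3 and 2 weeks differed by -1.93 (adjusted p = 0.0185), and this was the only such difference among the 7 that was still called without library 32. Egr1, an immediate early gene, moved with Onecut1 in the controls of 3 weeks, at 1018 to 1225 CPM there against 56.7 to 203 CPM in the other 9 libraries. Its part in the result was not tested.

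Onecut2 (ENSMUSG00000045991.20) was found at 71.7 CPM or more in all 12 libraries and varied least of the 7, with the highest library at 3.22 times the lowest. At 3 weeks it was at 163, 127 and 159 CPM in the NICD1/Akt livers, against 164, 231 and 169 CPM in controls. The log2 fold change was -0.21 (95% interval -0.58 to 0.15, adjusted p = 0.259), although the groups did not overlap. At 2 weeks it was at 77.4, 141 and 121 CPM in the NICD1/Akt livers, against 133, 109 and 71.7 CPM in controls, with a log2 fold change of 0.12 (95% interval -0.60 to 0.85, adjusted p = 0.856), which was -0.089 without library 32 and 0.051 without library 35. Library 32 had the lowest Onecut2 of all libraries. Scaling by library size alone gave Onecut2 a log2 fold change of 0.49 at 3 weeks (adjusted p = 0.0121), the only turn of direction among the 7 under that scaling at this stage, and below the median of 0.77 that it gave over all genes.

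**Figure D2:**
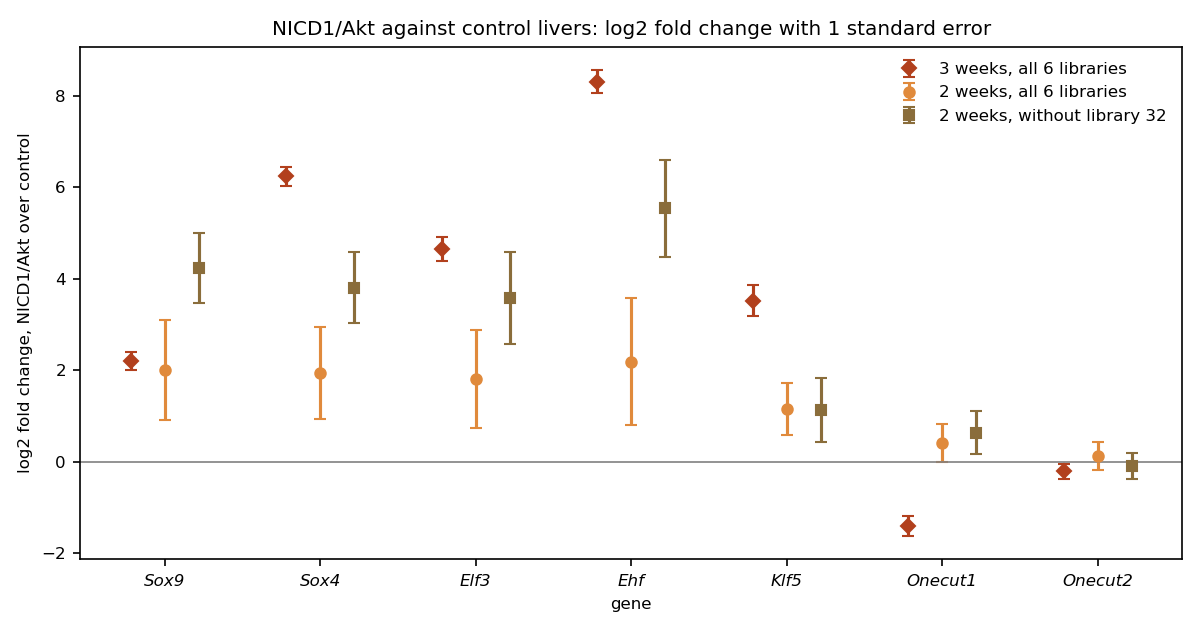
Log2 fold change of NICD1/Akt over control livers for each factor, with 1 standard error as bars, at 3 weeks, at 2 weeks with all 6 libraries, and at 2 weeks without library 32. Ehf had the largest value at 3 weeks, 8.31, and Onecut1 was below 0 at 3 weeks only; without library 32 the values of 2 weeks were larger for Sox9, Sox4, Elf3 and Ehf and close to the full ones for Klf5.

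At 2 weeks, 0.00% of 13041 genes were called, so the absence of calls among the factors does not set them apart. No gene passed the adjusted threshold in edgeR, 1120 had an unadjusted p under 0.05, DESeq2 called 27 genes and limma-voom 0. No factor was called by edgeR or limma-voom, nor any of the 5 to which DESeq2 gave a p-value, which it did not give for Sox9 and Ehf. None of the 7 factors was higher in all 3 NICD1/Akt libraries than in all 3 controls, as 7.48% of the genes tested were. With library 32 left out, 4 factors (Sox9, Sox4, Elf3 and Ehf) were higher in every NICD1/Akt library than in controls 30 and 31, where 23.6% of all genes were. Without library 32 no gene was called either (2418 had an unadjusted p under 0.05).

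The signed log2 fold change was higher at 3 than at 2 weeks for 3 factors (Sox4, Ehf and Klf5) and lower for 1 (Onecut1, at -1.41 and 0.40). Over 13829 genes, this test called 15.0% as higher and 15.8% as lower. The count rested on single libraries of every group. Sox4, Ehf and Klf5 all lost their calls without library 32, 10, 11, 12, 33 or 2, and with limma-voom, each of which left 1 factor called (Onecut1). The count was 2 without library 34, 3 without library 30, 31 or 3, and 5 without library 35, where Elf3 was added. Onecut1 was called in each of the 12 fits with 1 library left out.

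Within NICD1/Akt livers, 2 factors were higher at 3 than at 2 weeks, where 11.1% of all genes were called higher and 17.4% lower. Onecut1 rose by 2.02 on the log2 scale (SE 0.36, adjusted p = 0.00351) and Klf5 by 1.81 (SE 0.43, adjusted p = 0.0116). Elf3 and Ehf were not called, with log2 values of 2.04 (adjusted p = 0.0698) and 1.55 (adjusted p = 0.275). For Sox9 and Sox4, library 35 of 2 weeks lay within the range of 3 weeks, and neither was called (1.02 and 1.07). Without library 35 the values were 1.90 (adjusted p = 0.101) for Sox9 and 1.98 (adjusted p = 0.0552) for Sox4, and Elf3 was called (3.30, adjusted p = 0.00523), as it was without library 32. Klf5 lost its call without library 33 or 2, which left Onecut1 alone. Library 35 also had the most Akt1 of all 12 libraries, 925 CPM, against 595 to 855 CPM in the NICD1/Akt livers at 3 weeks.

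The controls of the 2 stages differed as well, and 4 of the 7 factors were called between them. Onecut1 was higher at 3 than at 2 weeks by 3.95 on the log2 scale (adjusted p = 5.29e-05) and Onecut2 by 0.84 (adjusted p = 0.0280), where 17.4% of all genes were called higher. Sox4 (log2 value -3.12, adjusted p = 0.0249) and Ehf (-4.47, adjusted p = 0.0317) were lower, where 20.4% of all genes were called lower. Without library 32 the calls of Sox4, Ehf and Onecut2 were lost, that of Onecut1 was kept, and Sox9 was called as higher (3.13, adjusted p = 0.00294). Sox4 and Ehf also lost their calls without library 10, 11 or 12, and Onecut2 without library 31 or 11, so that the count was 1 to 4 in fits with 1 library left out. The comparison of NICD1/Akt with controls at 3 weeks shares its control libraries with this one, so the 2 sets of values are not independent.

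Levels were compared between genes per kilobase of annotated exon. In NICD1/Akt livers at 3 weeks, Sox9 (45.0 ± 4.95 CPM per kilobase) and Ehf (40.8 ± 4.44) were the most abundant and did not differ beyond their spread (SD, n = 3). They were followed by Sox4 (24.6 ± 3.29), Elf3 (18.3 ± 1.45), Onecut1 (15.7 ± 2.02), Onecut2 (9.22 ± 1.21) and Klf5 (1.23 ± 0.337), and of these neighbours Elf3 and Onecut1 overlapped in range. In controls at 3 weeks the order was another one. Onecut1 came first (45.2 ± 14.4 CPM per kilobase), then Onecut2 (11.6 ± 2.29) and Sox9 (10.6 ± 2.92), whose ranges overlapped. Elf3 (0.781 ± 0.385), Sox4 (0.351 ± 0.112), Ehf (0.138 ± 0.0668) and Klf5 (0.115 ± 0.0423) were all at or below 1.09 CPM per kilobase in each library, and the ranges of Elf3 and Sox4 and those of Ehf and Klf5 overlapped.

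**Figure D3:**
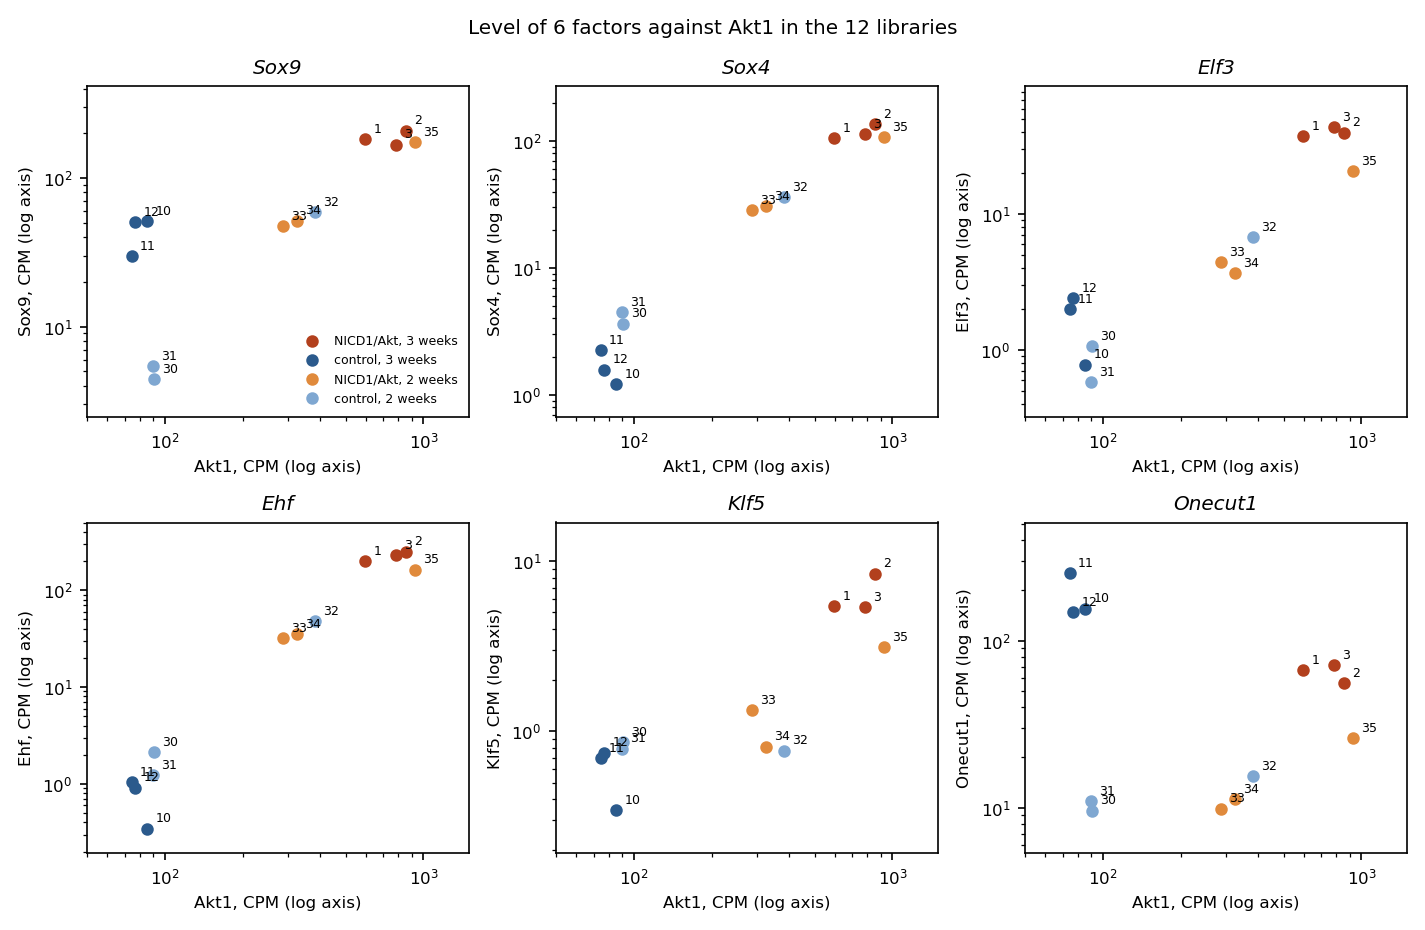
Level of 6 factors against that of Akt1 in the 12 libraries, in CPM on log axes, with the library number at each point and the group as its colour. Sox4, Elf3 and Ehf are high where Akt1 is high, library 32 (381 CPM of Akt1) included, whereas the controls of 3 weeks hold Sox9 at 29.9 to 51.3 CPM and Onecut1 at 148 to 254 CPM with Akt1 at 74.5 to 85.3 CPM.

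The libraries fell into a similar order for 4 of the factors. For Sox9, Sox4, Elf3 and Ehf alike, the NICD1/Akt livers of 3 weeks and library 35 took the first 4 places and library 32 the place after them, above libraries 33 and 34. Profiles over the 12 libraries were also compared after centring each gene on its own mean log2 CPM, as a description and with no test. By the root mean square (RMS) difference, the nearest pairs of factors were Sox4 and Ehf (0.94), Elf3 and Klf5 (1.04), Sox4 and Elf3 (1.06) and Sox9 and Elf3 (1.07), and the farthest was Onecut1 and Ehf (4.10).

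The genes nearest to each factor by the same measure, among 12719 genes with a mean of at least 1 CPM, lay closer to it than any other factor did. For Sox9 they were Sh3pxd2b (0.42), the chemokine gene Ccl2 (0.42) and Relb (0.55), which encodes an NF-κB subunit. For Sox4 they were Arl4c (0.30), Shisa2 (0.30) and Vsig10 (0.32), and for Ehf they were Fam163a (0.33), Tubb2b (0.35) and Rassf10 (0.39). These genes of Ehf were near 0 in the other controls and raised in library 32. That follows from their choice by likeness to Ehf over the same 12 libraries and is no separate evidence. Fam163a held 12.4 CPM in library 32 and 0, 0.0871 and 0.25 CPM in controls of 3 weeks. The NICD1/Akt livers of that stage held 51.9 to 74.3 CPM of it. For Elf3 they were Tnf (0.32), which encodes tumor necrosis factor, Mgp (0.46) and Fstl4 (0.46), and for Klf5 Lurap1 (0.27), Veph1 (0.32) and Sorl1 (0.33). For Onecut1 they were Adgrv1 (0.43), Socs3 (0.43), a feedback inhibitor of cytokine signalling, and Aph1c (0.49). Socs3 was at 37.7 to 44.4 CPM in the NICD1/Akt livers at 3 weeks, against 108 to 156 CPM in controls, and at 4.3 to 14.8 CPM in all libraries of 2 weeks. For Onecut2 they were Tmem39b (0.20), Dmxl1 (0.21) and Tug1 (0.22).

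The relatives of the factors did not all move as the factors did, at a stage where 38.9% of all genes were called higher and 33.1% lower. Of the 17 other SOX genes listed, 8 were expressed highly enough to be tested at 3 weeks, of which 6 were higher and 0 lower (median log2 fold change 0.97, against 0.06 over all genes). Sox8 stood out among them, at 6.67, 6.70 and 7.25 CPM in the NICD1/Akt livers, against 0, 0.0871 and 0 CPM in controls, which held 1 count in all. Its ratio was 240.1, with a 95% counting interval of 42.9 to 9503 that covers counting error only. The SOXF genes Sox18 (log2 fold change 1.46), Sox7 (1.04) and Sox17 (0.78), which are known from endothelium, were higher by less than Sox9, while Sox5 and Sox6 were not called.

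In the ETS family, Elf4 rose with Elf3 and Ehf, at 46.6, 59.9 and 52.9 CPM in the NICD1/Akt livers at 3 weeks, against 3.10, 2.87 and 2.92 CPM in controls (log2 fold change 4.28, SE 0.14, adjusted p = 2.09e-07). Elf1 (-0.58) and Elf2 (-0.32) were lower, so of 3 relatives tested 1 was higher and 2 lower (median -0.32). Over all genes tested, 38.9% were called higher and 33.1% lower. In the KLF family, 4 of 14 genes tested were higher, 5 lower and 5 not called (median -0.11). Among the lower ones were Klf9 (log2 fold change -1.35, SE 0.11), Klf10 (-1.79, SE 0.17) and Klf2 (-1.39, SE 0.18), the last a flow-responsive gene of endothelium. Klf16 was higher (1.49, SE 0.25), and Klf4, another factor of epithelia, was at 0.59 and was not called (adjusted p = 0.0524).

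Of the 4 relatives of the ONECUT factors tested, Cux1 (0.60) and Cux2 (1.18) were higher at 3 weeks and the SATB genes were not called (median 0.47). Cux2 is known as a female-biased gene of mouse liver. It was at 100, 21.4 and 12.4 CPM in the NICD1/Akt livers at 2 weeks, against 41.6, 51.5 and 0.617 CPM in controls, and at 0.784 to 2.61 CPM in all 6 libraries of 3 weeks. The library of 2 weeks with low Cux2 is number 32, the same that had Ddx3y RNA. Which part sex has in any value of 2 weeks was not tested.

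**Figure D4:**
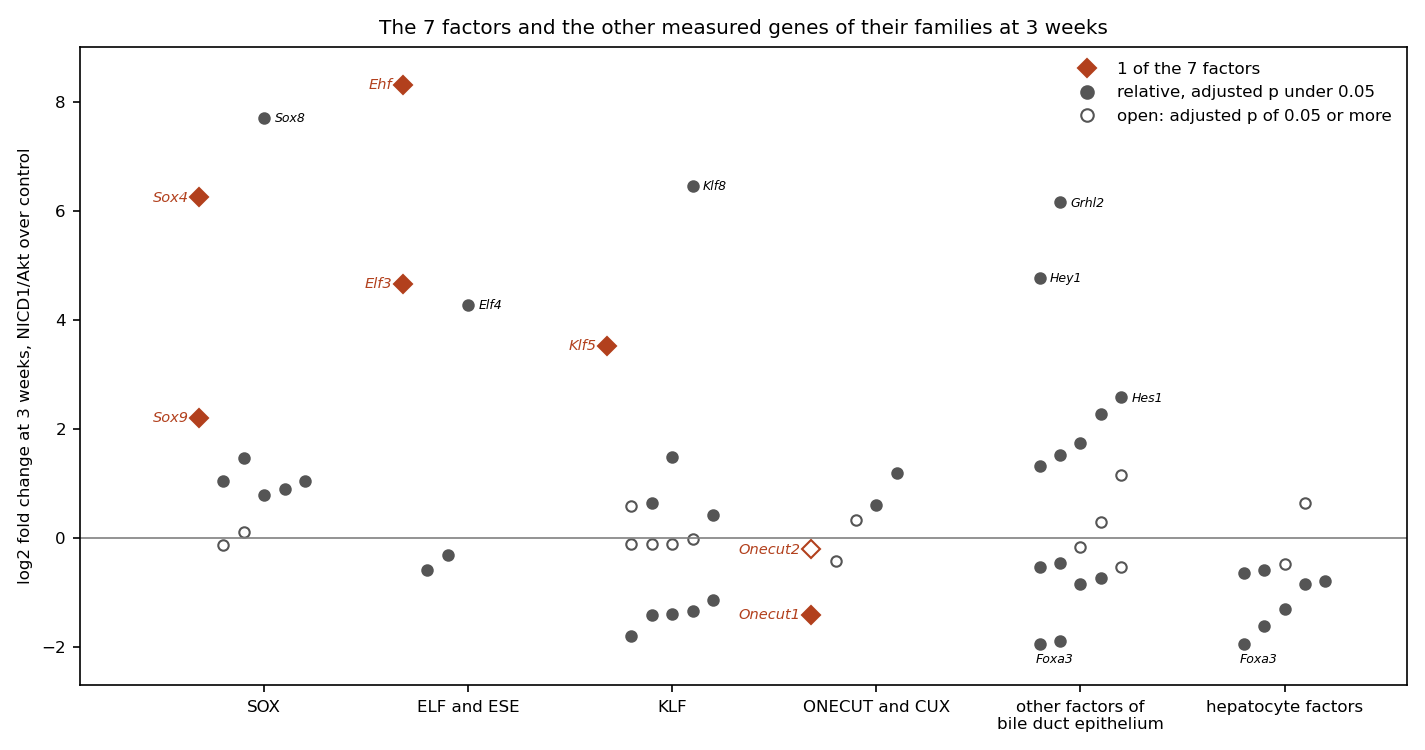
Log2 fold change of NICD1/Akt over control livers at 3 weeks for the 7 factors (diamonds) and the other tested genes of their families, of other factors of bile duct epithelium and of hepatocyte factors without Onecut1 (circles), filled where the adjusted p was under 0.05. Controls held 1 count of Sox8 and 0 of Klf8, so the height of those 2 points depends on the small count that the fit adds; most relatives lie between -2 and 2, below Ehf, Sox4, Elf3 and Klf5.

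Other factors of bile duct development and epithelium were mixed at 3 weeks, with 7 of 17 higher, 6 lower and 4 not called (median 0.30). These counts were near the shares over all genes, of which 38.9% were called higher and 33.1% lower. Grhl2, a factor of epithelial junction genes, was at 12.7, 16.9 and 16.6 CPM in the NICD1/Akt livers, against 0.172, 0.174 and 0.333 CPM in controls (6.15, SE 0.29). Wwtr1, which encodes TAZ, rose by 1.52 (SE 0.09), and Hey1, a Notch target, by 4.77 (SE 0.39). The lower ones included Yap1 (-0.84) and Foxa3 (-1.95). At 2 weeks the list had 0 calls.

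Hepatocyte factors, by contrast, were lower or not called at 3 weeks. Of 10, Onecut1 and Foxa3 among them, 8 fell, 0 rose and 2 were not called (median -0.83). Over all genes, 33.1% were called lower and 38.9% higher. Foxa3 was also counted above among the factors of bile duct development and epithelium. Hnf4a, a central hepatocyte regulator, was at 521, 405 and 540 CPM in the NICD1/Akt livers, against 1454, 1989 and 1404 CPM in controls (log2 fold change -1.61, SE 0.18, adjusted p = 9.43e-05). Cebpa (-1.31, SE 0.18), the bile acid receptor gene Nr1h4 (-0.80, SE 0.12) and Foxa3 (-1.95, SE 0.24) were lower too. Onecut1, itself part of this list and so of its count and median, was at -1.41 (SE 0.21), between Hnf4a and Cebpa. Differences between these genes were not tested.

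Markers of cell types moved with the factors, and in bulk RNA a larger share of biliary cells and more RNA per cell cannot be told apart. Over all genes at 3 weeks, 38.9% were called higher and 33.1% lower. The summed level of 13 biliary markers was 3933 to 4695 CPM in the NICD1/Akt livers at 3 weeks, against 288 to 379 CPM in controls, and 9 of the 10 tested were higher and 1 (Aqp1) lower. Cldn7, a claudin of duct epithelium, was at 32.9, 45.8 and 37.5 CPM in the NICD1/Akt livers, against 0.604, 0.522 and 0.667 CPM in controls. At 2 weeks the biliary sum was 1486 to 5167 CPM in the NICD1/Akt livers, against 323 to 2334 CPM in controls, with library 32 at the upper end. Of 10 hepatocyte markers 9 were lower at 3 weeks, with a sum of 25397 to 39607 CPM in the NICD1/Akt livers, against 109169 to 114244 CPM in controls. The sum of 5 cell division genes was 221 to 303 CPM, against 1.57 to 5.50 CPM in controls, and all 5 were higher.

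Other lists moved too, in a comparison that called 38.9% of all genes higher and 33.1% lower. Stellate cell and fibroblast genes, 7 in all, summed to 2515 to 3393 CPM in the NICD1/Akt livers at 3 weeks, against 288 to 382 CPM in controls, and 4 were higher, among them Col1a1 and Pdgfrb. At 2 weeks they summed to 1663 CPM in library 32 and to 583 and 587 CPM in controls 30 and 31. All 6 macrophage genes were higher and all 4 Kupffer cell genes lower at 3 weeks, while endothelial genes had 1 higher and 2 lower of 6. Of 2 T cell genes tested 1 was lower, 0 of 2 neutrophil genes were called, and no B cell gene reached the level to be tested. Of gut and pancreas genes, 2 of 3 tested were higher, among them Pdx1, a pancreatic and duodenal factor, at 14.4 to 22.1 CPM in the NICD1/Akt livers and 0 counts in controls (at least 204.3-fold higher, taking 3 counts in the summed controls as the floor), while the other defining genes of that list, such as Cdx2 and Cpa1, were too low to be tested. The part of each cell type in the levels of the 7 factors was not tested.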

How the data were processed

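Poly(A) RNA of 12 mouse liver libraries was sequenced with a strand-specific kit. Whole-number counts per gene, not normalized, were deposited by the authors as a table for each stage. Trimming, STAR and mm10 stand in the methods, but the submitters' notes on processing give GRCm39 with STAR 2.7 and Subread 2.0.6. It was not settled which applies. The only coordinates given are those of the RefSeq promoter windows, in GRCm38.p6, which may not be the build of the counts. GENCODE M21 gave symbols for 21573 of 21807 gene IDs, and its merged exons gave the lengths.

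CPM, log2 fold changes and p-values were then computed in R 4.3.3 with edgeR 4.0.16 (TMM, filterByExpr with default settings, glmQLFit and glmQLFTest, Benjamini-Hochberg adjustment over all genes tested, threshold 0.05). Adjusted p-values are from this test except where DESeq2 or limma-voom is named. The 6 libraries of a stage were fitted by themselves. The difference between stages and the comparisons of 3 with 2 weeks came from all 12 libraries in 4 groups. Standard errors and 95% intervals were derived from the F statistic.

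Groups and library numbers came from the labels. The 7 factors and all gene lists were chosen with earlier results of these data known. Named genes are the 7 factors, Notch1 and Akt1, at most 4 genes per list, by the lowest adjusted p of 3 weeks, family members that moved against the factor of their family, and the 3 nearest profiles of each factor (prior count 2). Ddx3y, Egr1, Sox5, Sox6, Sox17, Klf4, Klf8, Yap1, Aqp1, Cdx2 and Cpa1 were named after their values were seen. The values of 1 gene that this rule names are not reported here. Promoters are from RefSeq (GRCm38.p6).

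Total counts set the precision, and intervals on ratios of counts cover counting error only. No pair of libraries within a group was a repeat deposit (chi-square per gene 4.77 to 130). The scripts were tested on simulated data. Alternatives were DESeq2 1.42.0, limma-voom (limma 3.58.1), other scalings and filters, all 12 libraries in 1 fit, all 6 controls, and leaving out each library in turn. The alternatives for 3 against 2 weeks within a condition were chosen after seeing the data. Other experiments of the study were not analysed here.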

Additional observations from a re-analysis of the deposited data

Results flagged for a closer look

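The difference between the effect at 3 weeks and that at 2 weeks passed the edgeR test for 4 of the 7 factors, as it did for 15.0% of all genes upwards and 15.8% downwards. On the log2 scale it was 4.19 for Sox4 (adjusted p = 0.0276), 6.02 for Ehf (adjusted p = 0.0299), 2.25 for Klf5 (adjusted p = 0.0331) and -1.93 for Onecut1 (adjusted p = 0.0185). Without the library labelled control 32, the values were 2.34, 2.68, 2.28 and -2.15, and only that of Onecut1 passed (adjusted p = 0.0220). The effects of 2 weeks rest on controls 30, 31 and 32, of which library 32 held 36.0 CPM of Sox4 and 48.3 CPM of Ehf, beside 3.65 and 4.46 CPM of Sox4 and 2.12 and 1.22 CPM of Ehf in controls 30 and 31. For Onecut1 the control levels of 3 weeks, 148 to 254 CPM, against 9.62 to 15.5 CPM at 2 weeks, enter the difference directly. The causes were not tested, and sex by Ddx3y, stage and library 32 cannot be told apart in full.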

How the results depend on the processing

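At 3 weeks, 6 factors were called in the main analysis, and 5 to 7 under the alternatives. The calls over all genes moved as well. The main analysis called 9650 of 13408 genes. Library size only, with 7 factors, called 10363 of 13408, and all 6 controls, with 5 factors, called 6824 of 13600. The calls of Sox9, Sox4, Elf3, Ehf and Klf5 and their direction were kept in all 14 alternatives, including each left-out library. With all 12 libraries in 1 fit, however, Sox9 (2.08, SE 0.86) was only just under the threshold (adjusted p = 0.0497). Against all 6 controls, library 32 among them, Ehf was 4.65 in place of 8.31 and Sox4 3.84 in place of 6.24. Onecut1 lost its call against all 6 controls (-0.62, adjusted p = 0.642). Onecut2 turned to 0.49 with library size only and to 0.029 against all 6 controls. At 2 weeks no alternative called a factor, with no p-value from DESeq2 for Sox9 and Ehf. Without library 35, Sox9, Sox4, Elf3, Ehf and Klf5 were at 0.39 to 1.12. Onecut1 turned to -2.60 and Onecut2 to -0.34 against all 6 controls. With a library left out, Onecut1 lay between -0.20 (without library 35) and 0.65, and Onecut2 between -0.089 (without library 32) and 0.34, with a turn of Onecut2 without library 34 too (-0.067). Klf5 had 13 alternatives there, since the filter of 1 CPM in 3 libraries removed it.

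The difference between stages had 4 calls, 1 with limma-voom and 1 to 5 with a library left out. Onecut1 lost its call with library size only (adjusted p = 0.109). Onecut2 turned to 0.13 with library size only. Sox9, never called, turned to -0.61 with limma-voom and lay between -2.13 and 0.96 with a library left out. The count within controls was 4, 2 with limma-voom and 1 to 4 with a library left out, and Elf3 turned to 0.00132 with limma-voom and lay between -1.15 and 1.04 with a library left out, the turn being without library 32. The count within NICD1/Akt livers was 2, and 1 to 3 with a library left out. Over all genes, the share of calls that were higher was 48.8% for the difference between stages (92.2% with library size only, 70.1% with upper quartile factors), 38.9% within NICD1/Akt livers (78.5% with library size only) and 46.1% within controls (29.6% with library size only, 29.2% with upper quartile factors). The difference called 4258 genes, and 2404 (without library 33) to 6801 (without library 35) with a library left out. The comparison within NICD1/Akt livers called 3932 genes, and 1990 to 6689 without those same libraries. No paired analysis was possible because the groups share no library numbers. The causes of these changes were not tested. Ehf and Klf5 rest on 4 to 12 counts per control library at 3 weeks, which limits the precision of their fold changes.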
